A study of Rattus norvegicus with 9 samples.

Results

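Transcripts of 10 rat genes for iron storage, transport and sensing were followed in striatal tissue, chosen by gene symbol from the 22890 rows of the deposited count files. Of the 10, 9 had a row and 8 passed the filter on low counts; each of these 8 had at least 37 counts in every library. They were the heavy ferritin chain Fth1, transferrin (Tf) and its receptor Tfrc, the divalent metal carriers Slc11a1 and Slc11a2, ceruloplasmin (Cp), and the iron regulatory proteins Aco1 and Ireb2. The light ferritin chain Ftl1 had a row but almost no reads, and Slc40a1, the ferroportin gene, was not analysed here. RNA sequencing covered 9 libraries from 3 groups of 3. Sham served as the control, ICH had bleeding into the brain tissue (intracerebral hemorrhage), and the EDB label stands for edaravone dexborneol, in which the radical scavenger edaravone is combined with dexborneol. The sources used here do not give strain, age, sex, dose, time after surgery or whether the EDB rats also bled. Whether libraries of 1 group stem from different animals is not stated either, and the p-values therefore measure only the spread between these libraries.

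Cells take up iron when transferrin carrying it binds the transferrin receptor and both enter the cell, where Slc11a2 (DMT1) moves the iron out of endosomes. Slc11a1 (NRAMP1) carries metal ions across the phagosome membrane of macrophages. Ferritin, a shell of heavy and light chains, stores iron, and the heavy chain oxidises it for storage. Ferroportin exports iron, and the ferroxidases ceruloplasmin and hephaestin oxidise it for loading onto transferrin. Aco1 (IRP1) and Ireb2 (IRP2) bind iron-responsive elements in messenger RNAs when iron is low, which blocks translation of ferritin and stabilises the transferrin receptor message. Much of this control acts on translation, which read counts do not measure. In the brain, oligodendrocytes make much of the transferrin, and blood left by a hemorrhage is a source of haem iron.

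Total counts ran from 14658110 to 17659936 per library, and CPM stands for counts divided by the TMM-adjusted library size and brought to a common total. Changes are log2 fold changes ± SE from edgeR's quasi-likelihood test, n = 3 against 3. The words rose and fell are used only where the p, adjusted by Benjamini-Hochberg across the 14274 genes tested, was under 0.05. The striatal neuron genes Drd1, Drd2 and Ppp1r1b were read in every library, at 239.6 to 397, 249 to 536 and 2330.3 to 6174 CPM. Some libraries stood apart from others of their group. EDB 3 held choroid plexus transcripts, with a sum of 7602 CPM over 9 choroid plexus markers against 31.3 to 85.5 CPM in the other 8 libraries. ICH 1 had 0 counts of the Y-linked genes Kdm5d and Eif2s3y, which allows up to 0.175 CPM, against 10.3 to 18.5 and 3.35 to 9.91 CPM elsewhere. Sham 2 lay at -25.1 on the second principal component (20.3% of the variance), with Sham 1 and Sham 3 at 22.4 and 30.2. Liver transcripts were read in Sham 1 and Sham 3, where albumin (Alb) had 166 and 165 CPM, against 2.27 to 25.8 CPM in the other 7 libraries. Haemoglobin alpha (Hba-a2), a transcript of red cells, ran from 510.4 to 689 CPM in Sham, from 65.2 to 997 CPM in ICH and from 255 to 1248 CPM in EDB.

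Promoter sequences are shown for Tf, Cp and Aco1, which were called in a comparison, and for Tfrc, the receptor of transferrin. They are RefSeq sequences of the assembly GRCr8, matched by symbol (6 of the 9 genes with a row had one; Fth1, Ftl1 and Slc11a1 did not), whereas the counts rest on Rnor_6.0. Each is the 250 bases before the gene start, 5′ to 3′ along the gene, at chr8:112695377-112695626 (minus strand) for Tf, chr11:81690319-81690568 (minus strand) for Tfrc, chr2:104368420-104368669 (plus strand) for Cp and chr5:60055645-60055894 (plus strand) for Aco1. Capitals mark matches on either strand to 5 motifs. These were the TATA box (TATAAA), the CCAAT box, the GC box (GGGCGG), the cAMP response element core (TGACGT) and the hypoxia response element core (ACGTG), of which the last pair can share bases.
Tf: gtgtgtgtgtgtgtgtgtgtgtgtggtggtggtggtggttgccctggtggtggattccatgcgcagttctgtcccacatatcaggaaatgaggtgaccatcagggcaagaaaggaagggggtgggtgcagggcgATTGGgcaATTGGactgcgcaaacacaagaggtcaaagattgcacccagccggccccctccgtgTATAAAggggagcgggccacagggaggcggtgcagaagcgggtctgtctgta
Tfrc: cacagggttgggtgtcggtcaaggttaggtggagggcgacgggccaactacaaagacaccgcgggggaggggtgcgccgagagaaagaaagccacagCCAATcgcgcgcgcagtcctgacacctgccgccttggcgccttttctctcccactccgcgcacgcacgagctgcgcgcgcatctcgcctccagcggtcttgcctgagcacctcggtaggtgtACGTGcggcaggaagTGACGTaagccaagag
Cp: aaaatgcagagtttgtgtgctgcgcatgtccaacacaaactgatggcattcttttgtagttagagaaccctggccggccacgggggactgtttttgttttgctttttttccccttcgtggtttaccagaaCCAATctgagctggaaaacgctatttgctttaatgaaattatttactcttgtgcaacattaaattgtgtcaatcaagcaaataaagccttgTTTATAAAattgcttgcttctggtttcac
Aco1: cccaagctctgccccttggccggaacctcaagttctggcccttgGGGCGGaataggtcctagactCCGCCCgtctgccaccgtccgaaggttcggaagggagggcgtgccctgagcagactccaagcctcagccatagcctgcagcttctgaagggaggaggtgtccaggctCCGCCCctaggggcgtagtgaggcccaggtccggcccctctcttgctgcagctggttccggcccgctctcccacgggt
Tf and Cp had a TATA box match, with its first base 52 bases before the start in Tf and, as 2 overlapping matches on opposite strands, 29 and 27 bases before it in Cp. That motif was found in 12.9% of 33469 promoter windows of the same length. Tf also had 2 CCAAT matches, and Cp and Tfrc 1 each (34.0% of windows had at least 1). Tfrc had neither a TATA box nor a GC box match, but held the hypoxia and cAMP cores 31 and 16 bases before the start (16.6% and 6.95% of windows). Aco1 had 3 GC box matches (30.5% of windows) and none of the other motifs. A match describes the letters only and is not evidence of a bound factor.

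Against Sham, the iron genes that passed the test in ICH were all higher. Of the 8 tested, 4 rose (Slc11a1, Cp, Aco1 and Fth1), 0 fell and 4 were not called, where 18.7% of all genes tested were called, 11.4% higher and 7.3% lower. At an unadjusted p under 0.05, 5 were higher and 2 lower. The share of all genes at that threshold was not computed, so these numbers cannot be set against the shares above. The count was 2, Slc11a1 and Aco1, without Sham 1, where 2162 of all genes tested were called, against 2670 with all libraries. With scaling by library size alone, 2008 genes rose and 691 fell over the whole table, against 1628 and 1042 with TMM, and Tf was a further iron gene called. DESeq2 called 5 of the 8 as higher and 1 (Tfrc) as lower. Over the 14274 genes tested it called 1800 as higher and 1465 as lower. By limma-voom, 4 were called higher and Tfrc lower, beside 1621 and 1011 of all genes tested. The median log2 fold change of the 8 was 0.52, beside 0.0066 over all genes tested.

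**Figure D1:**
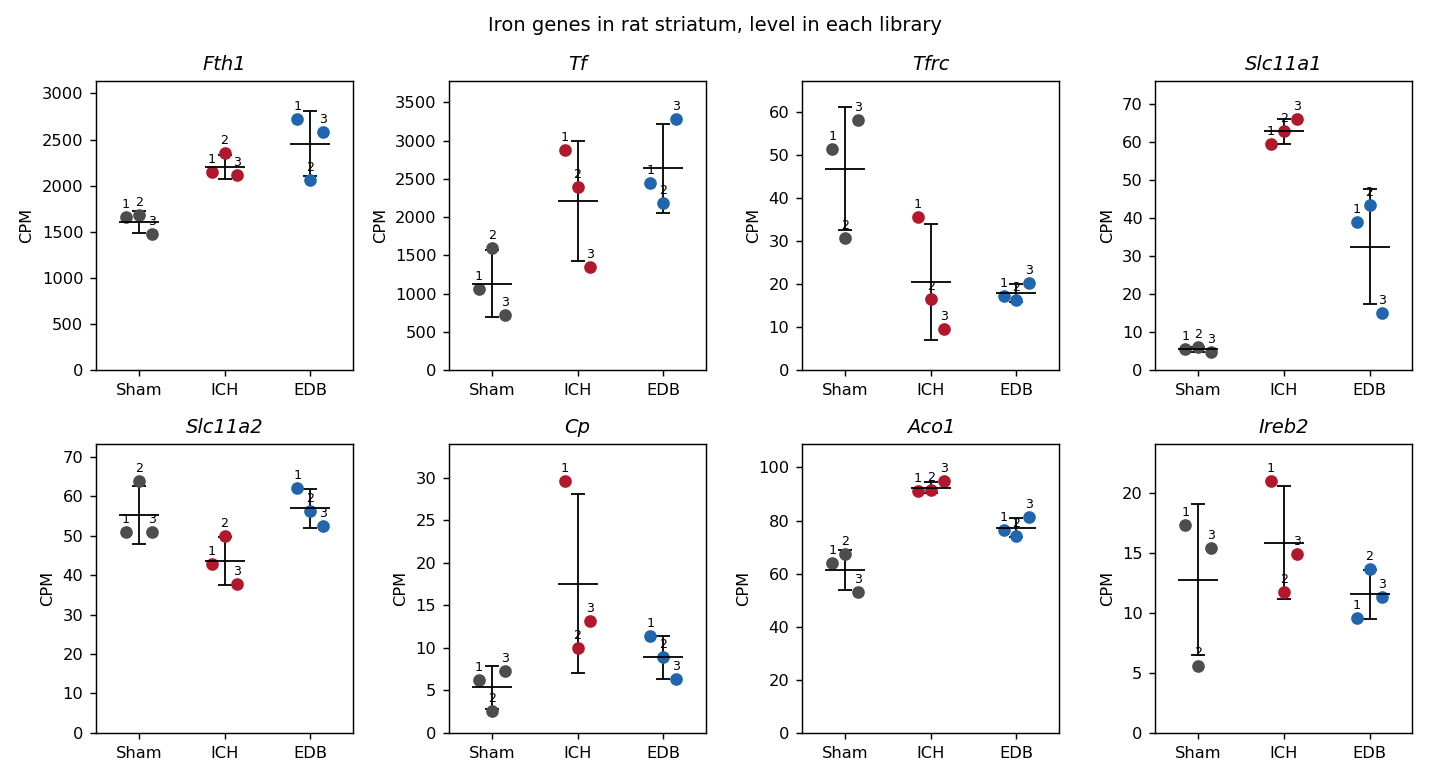
Level of each tested iron gene in CPM (vertical axes from 0) in the 3 libraries of Sham, ICH and EDB; points are libraries with their replicate number, bars the mean ± SD. Slc11a1 and Aco1 were highest in all 3 ICH libraries and intermediate in EDB, whereas Fth1 was above every Sham library in all ICH and EDB libraries.

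Fth1, the ferritin chain with ferroxidase activity, was read at 1665, 1680.4 and 1474 CPM in the 3 Sham libraries in order. ICH 1 to ICH 3 held 2152, 2353 and 2112 CPM of it, and EDB 1 to EDB 3 held 2725, 2058 and 2586 CPM. Every ICH and every EDB library lay above every Sham library, and the ICH and EDB ranges overlapped. Fth1 rose by 0.46 ± 0.14 from Sham to ICH (adjusted p = 0.0469), from 1606 ± 115 to 2206 ± 129 CPM (SD, n = 3), and by 0.61 ± 0.14 from Sham to EDB (adjusted p = 0.0262), where it reached 2456 ± 352 CPM. EDB and ICH differed by 0.16 ± 0.14 (adjusted p = 0.631). In bulk tissue, more cells of a type and more RNA per cell cannot be told apart. The call in ICH was near the threshold. It was lost without any 1 library other than Sham 2 or EDB 2 (adjusted p spanning 0.0580 to 0.196), with RLE scaling (0.0729), without a filter on low counts (0.0571) and with only the 6 libraries compared (0.0685), whereas the log2 fold change with 1 library left out stayed between 0.38 and 0.49. That in EDB was lost without Sham 1, Sham 3, ICH 2, EDB 1 or EDB 3 (adjusted p spanning 0.0581 to 0.113) and with only the 6 libraries compared (0.0583).

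The Ftl1 row held 0, 0 and 0 counts in the Sham libraries, 1, 2 and 2 in ICH and 3, 5 and 0 in EDB, so that a level of the light chain, or a ratio of heavy to light chain, could not be given. The reference gene table names 7 Ftl1-like genes, 14 Ftl1 pseudogenes, 1 Fth1-like gene and 5 Fth1 pseudogenes, and 0 of these have a row in the files under those names. The sources used here do not say how reads from such near-identical copies were assigned, and the Fth1 level carries the same uncertainty.

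Tf, the iron carrier of plasma and brain fluid, had 1067, 1596 and 725 CPM in Sham 1 to Sham 3. Its levels were 2881, 2391 and 1354 CPM in ICH 1 to ICH 3 and 2442, 2180.2 and 3285 CPM in EDB 1 to EDB 3. ICH 3 lay below Sham 2, so Sham and ICH overlapped, whereas all EDB libraries lay above all Sham libraries. Tf rose in EDB, from a mean of 1129 ± 439 in Sham to 2636 ± 577 CPM (1.22 ± 0.32, adjusted p = 0.0433). In ICH the mean was 2209 ± 779.7 CPM and the difference from Sham missed the threshold (0.97 ± 0.32, adjusted p = 0.0574). It passed without Sham 2 or ICH 3 (adjusted p of 0.0232 and 0.0207), with DESeq2 (0.0140) and with scaling by library size alone (0.0321). The call in EDB was lost without Sham 1, Sham 3, ICH 2, EDB 1, EDB 2 or EDB 3 (adjusted p spanning 0.0561 to 0.148) and without a filter on low counts (0.0576). EDB and ICH differed by 0.25 ± 0.32 (adjusted p = 0.731).

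Tfrc, the receptor that takes transferrin into cells, was lower than Sham in the means of both other groups, but was not called. Sham 1, Sham 2 and Sham 3 had 51.4, 30.7 and 58.0 CPM of it. ICH 1 to ICH 3 had 35.6, 16.4 and 9.61 CPM, and EDB 1 to EDB 3 had 17.2, 16.3 and 20.3 CPM. All EDB libraries lay below all Sham libraries, and ICH 1 lay above Sham 2. The log2 fold change against Sham was -1.19 ± 0.40 in ICH (adjusted p = 0.0601) and -1.38 ± 0.40 in EDB (adjusted p = 0.0604). Without ICH 1 the difference of ICH passed (-1.84, adjusted p = 0.00389), as did that of EDB without Sham 2, ICH 1 or ICH 3 (adjusted p spanning 0.0125 to 0.0441) and with only the 6 libraries compared (0.0129). DESeq2 called both (adjusted p = 0.00895 and 0.00426), and limma-voom called that in ICH (0.0312). EDB and ICH differed by -0.19 ± 0.40 (adjusted p = 0.843), a value that was 0.46 without ICH 1. Reticulocytes, brain endothelium and neurons carry the receptor, and their markers were set beside it. The 7 summed markers of red cells and reticulocytes ran from 548 to 735 CPM in Sham, 68.7 to 1071 CPM in ICH and 271 to 1346 CPM in EDB. Those of brain endothelium, 8 summed genes, ran from 409 to 612, 386 to 444 and 349.9 to 397 CPM in the same order, and those of 8 neuronal genes from 2609 to 3303, 2050.3 to 2409 and 2605 to 2866 CPM. No endothelial or neuronal marker was at 0 in any group, and 1 red cell marker was at 0 in ICH. In ICH against Sham, 3 neuronal markers fell, and 1 endothelial marker rose and 1 fell. In EDB against Sham, 0 neuronal markers were called and 1 endothelial marker fell. Of the red cell markers tested, 0 were called. Over all libraries, Hba-a2 made up 92.9% of the red cell sum, Eno2 42.5% of the neuronal and Vwf 32.0% of the endothelial sum. Per 1000 CPM of endothelial markers, Tfrc stood at 75.0 to 119 CPM in Sham, 24.9 to 80.1 CPM in ICH and 43.3 to 57.3 CPM in EDB. Per 1000 CPM of neuronal markers it stood at 9.30 to 21.3, 3.99 to 17.3 and 5.91 to 7.80 CPM in that order. For red cell markers the ranges were 56.1 to 89.0, 15.3 to 256 and 12.8 to 60.2 CPM. The part of these cells in the Tfrc values was not tested.

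**Figure D2:**
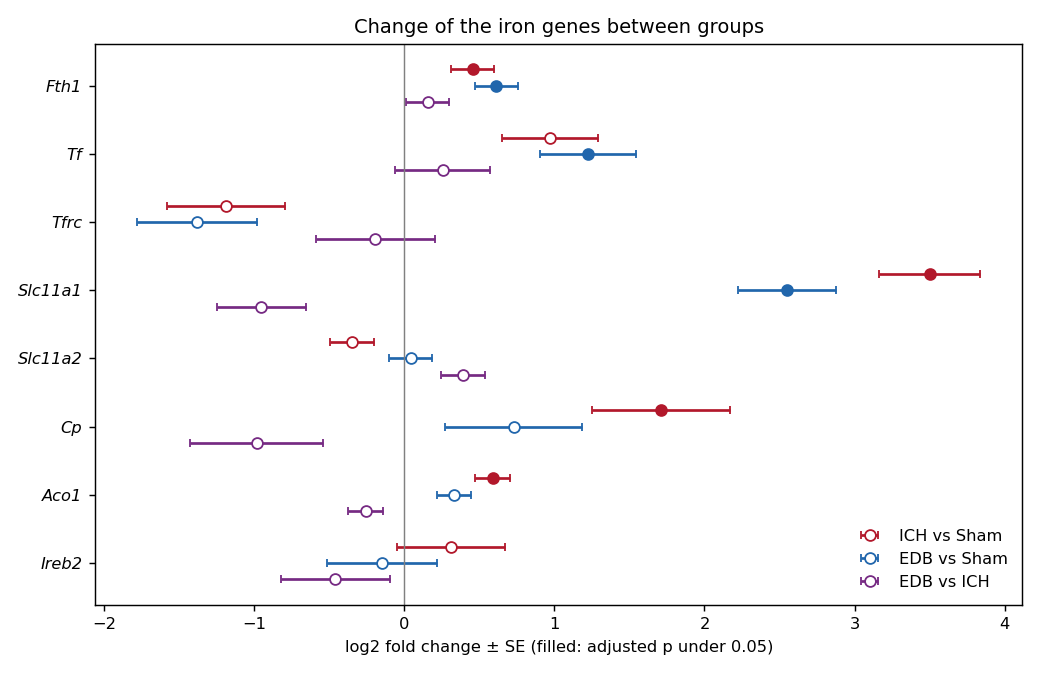
Fitted log2 fold change ± SE of the 8 tested iron genes (rows) for ICH against Sham, EDB against Sham and EDB against ICH; filled points have an adjusted p under 0.05. Slc11a1 has the largest changes of the 8, 3.50 in ICH and 2.55 in EDB against Sham, no point for EDB against ICH is filled, and Tfrc lies below 0 in both comparisons with Sham, unfilled.

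Of the carriers of divalent metals, Slc11a1 rose in both groups and Slc11a2 was not called. Slc11a1, the phagosomal transporter of macrophages and microglia, had 5.56, 6.16 and 4.88 CPM in Sham 1 to Sham 3 and 59.4, 62.9 and 66.0 CPM in ICH 1 to ICH 3. EDB 1, EDB 2 and EDB 3 held 38.9, 43.3 and 15.1 CPM. The 3 groups did not overlap, and EDB 3 was the lowest of its group. Slc11a1 rose 11.3-fold in mean CPM from Sham to ICH (log2 fold change 3.50 ± 0.34, adjusted p = 6.78e-05) and 5.86-fold from Sham to EDB (2.55 ± 0.33, adjusted p = 0.00129). Both calls held without any single library. Every EDB library lay below every ICH library, with a difference of -0.95 ± 0.30 that was not called (adjusted p = 0.157). DESeq2 called it (adjusted p = 0.0467), and without EDB 3 the difference was -0.61 (adjusted p = 0.136).

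Markers of microglia and macrophages moved with Slc11a1. All 12 markers on that list rose in ICH and 11 of the 12 in EDB against Sham, and 1 of them (Lyz2) fell in EDB against ICH. Their summed level was 625 to 749 CPM in Sham and 3705 to 3918 CPM in ICH. It was 2894, 2569 and 1593 CPM in EDB 1, EDB 2 and EDB 3, with no marker at 0 in any group. Per 1000 CPM of these markers, Slc11a1 stood at 8.90, 9.37 and 6.52 CPM in Sham. It stood at 16.0, 16.6 and 16.9 CPM in ICH and at 13.4, 16.9 and 9.50 CPM in EDB. By this ratio, chosen after the levels were seen and given with no test, Slc11a1 was higher relative to the summed markers in every ICH and EDB library than in any Sham library, EDB 3 by the least. The ratio depends on the genes summed, and Csf1r made up 25.3% of the sum over all libraries. In ICH against Sham, Cd68 (4.95) and Lyz2 (3.51) had larger log2 fold changes than Slc11a1, and the other markers had smaller ones. The part of a change in cell number in the Slc11a1 result was not tested.

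Slc11a2, the endosomal iron carrier found in most cells, had 51.1, 63.8 and 51.0 CPM in Sham, 42.9, 49.8 and 37.7 CPM in ICH and 62.2, 56.3 and 52.5 CPM in EDB. All ICH libraries lay below all libraries of the other groups. The differences were -0.35 ± 0.14 for ICH against Sham (adjusted p = 0.126), 0.39 ± 0.14 for EDB against ICH (adjusted p = 0.216) and 0.044 ± 0.14 for EDB against Sham (adjusted p = 0.893), and none was called.

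Ceruloplasmin, which oxidises exported iron and is anchored to astrocytes in the brain, rose in ICH. Sham 1 to Sham 3 had 6.25, 2.53 and 7.29 CPM of Cp. The ICH libraries had 29.6, 10.004 and 13.1 CPM, and the EDB libraries 11.4, 8.87 and 6.31 CPM. The value in ICH 1 was above that of every other library, and EDB overlapped Sham. The lowest ICH library lay below EDB 1. Within Sham, Cp was lowest in Sham 2, where albumin stood at 3.21 CPM, against 166 and 165 CPM in Sham 1 and Sham 3. The part of liver RNA in the Cp values was not tested. The change of Cp from Sham to ICH was 1.71 ± 0.46 (adjusted p = 0.0248), from 5.36 ± 2.503 to 17.6 ± 10.5 CPM. Without ICH 1 it was 1.11 (adjusted p = 0.113), and the call was also lost without Sham 1 or Sham 2 (0.0563 and 0.0655). EDB differed from Sham by 0.73 ± 0.46 (adjusted p = 0.388) and from ICH by -0.98 ± 0.45 (adjusted p = 0.308). With 1 library left out the former ran from 0.39 to 1.01, and the latter was -0.38 without ICH 1. The 9 astrocyte markers summed to 5713 to 6528 CPM in Sham, 9894 to 10506 CPM in ICH and 7467 to 8753 CPM in EDB, and Gfap made up 35.5% of the sum over all libraries. Of the 9, 2 rose and 1 fell in ICH against Sham, and none was at 0 in any group. Per 1000 CPM of these markers, Cp stood at 1.03, 0.443 and 1.12 CPM in Sham. It stood at 2.95, 1.01 and 1.25 CPM in ICH and 1.41, 1.19 and 0.721 CPM in EDB. By this ratio, given with no test, all groups overlapped, and ICH 2 lay below Sham 1 and Sham 3. The part of astrocytes in the Cp result was not tested.

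Of the iron sensors, Aco1 rose in ICH and Ireb2 was not called. Aco1, an aconitase that becomes an RNA-binding protein when it loses its iron-sulfur cluster, had 63.9, 67.2 and 53.1 CPM in Sham, 91.1, 91.4 and 94.7 CPM in ICH and 76.4, 74.2 and 81.2 CPM in EDB. The 3 groups did not overlap, with EDB between the others. Aco1 rose from 61.4 ± 7.40 to 92.4 ± 2.03 CPM in ICH (0.59 ± 0.12, adjusted p = 0.00517), a call that held without any single library. EDB differed by 0.33 ± 0.12 from Sham (adjusted p = 0.113) and by -0.26 ± 0.12 from ICH (adjusted p = 0.304). Ireb2, which is degraded when iron is plentiful, had 17.3, 5.61 and 15.4 CPM in Sham, 20.9, 11.8 and 14.9 CPM in ICH and 9.59, 13.7 and 11.3 CPM in EDB, with overlap between all groups. Its log2 fold changes were 0.31 ± 0.36 for ICH against Sham (adjusted p = 0.621), -0.15 ± 0.36 for EDB against Sham (0.851) and -0.46 ± 0.36 for EDB against ICH (0.569).

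**Figure D3:**
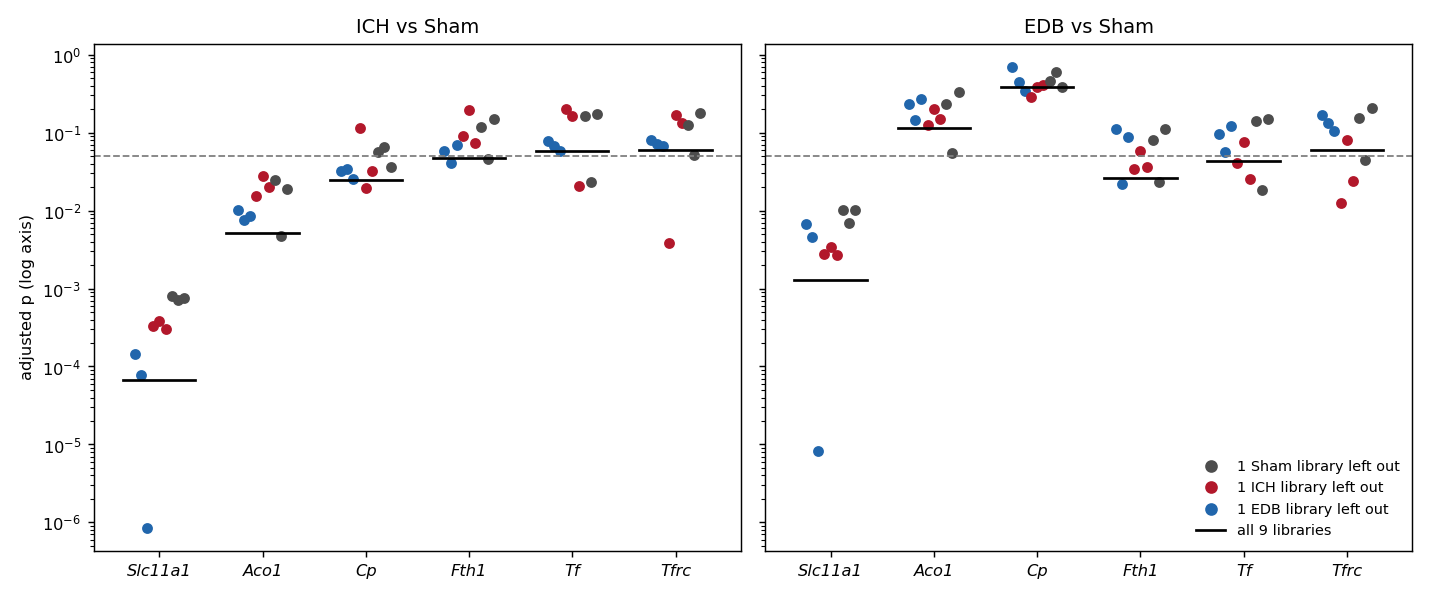
Adjusted p (log axis) of 6 iron genes in ICH against Sham and EDB against Sham with all 9 libraries (bars) and with 1 library left out (points, coloured by its group); the dashed line is 0.05. Slc11a1 stays below the line in both comparisons and Aco1 in ICH against Sham, whereas Cp, Fth1, Tf and Tfrc cross it in at least 1 comparison.

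In EDB against Sham, 3 of the 8 tested genes rose (Slc11a1, Tf and Fth1), 0 fell and 5 were not called, where 7.66% of all genes tested were called, 4.95% higher and 2.71% lower. At an unadjusted p under 0.05, 4 were higher and 1 (Tfrc) lower, with no share of all genes computed at that threshold. DESeq2 called the same 3 genes as higher and Tfrc as lower, and limma-voom called the same 3 as higher and 0 as lower. Over the 14274 genes tested, DESeq2 called 1040 as higher and 757 as lower, and limma-voom 578 and 329. The count was 1, Slc11a1, without Sham 1, Sham 3, ICH 2, EDB 1 or EDB 3. Over all genes tested, 590, 577, 817, 508 and 792 were called in the same order, against 1094 with all libraries. The median log2 fold change of the 8 was 0.47, beside -0.0073 over all genes tested.

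In EDB against ICH, the drug group against the hemorrhage group, 0 of the 8 genes were called by edgeR, where 0.687% of all genes tested were called, 0.056% higher and 0.631% lower. At an unadjusted p under 0.05, 1 was higher (Slc11a2) and 3 were lower (Slc11a1, Cp and Aco1). The share of all genes was not computed at that threshold, and 0.687% is not its background. DESeq2 called 1 (Slc11a1, lower) and limma-voom 0. Over the 14274 genes tested, DESeq2 called 217 as higher and 485 as lower, and limma-voom 21 and 161. The median of the 8 was -0.23, beside -0.033 over all genes tested. The comparisons share libraries, so the values of a gene in them are not independent.

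**Figure D4:**
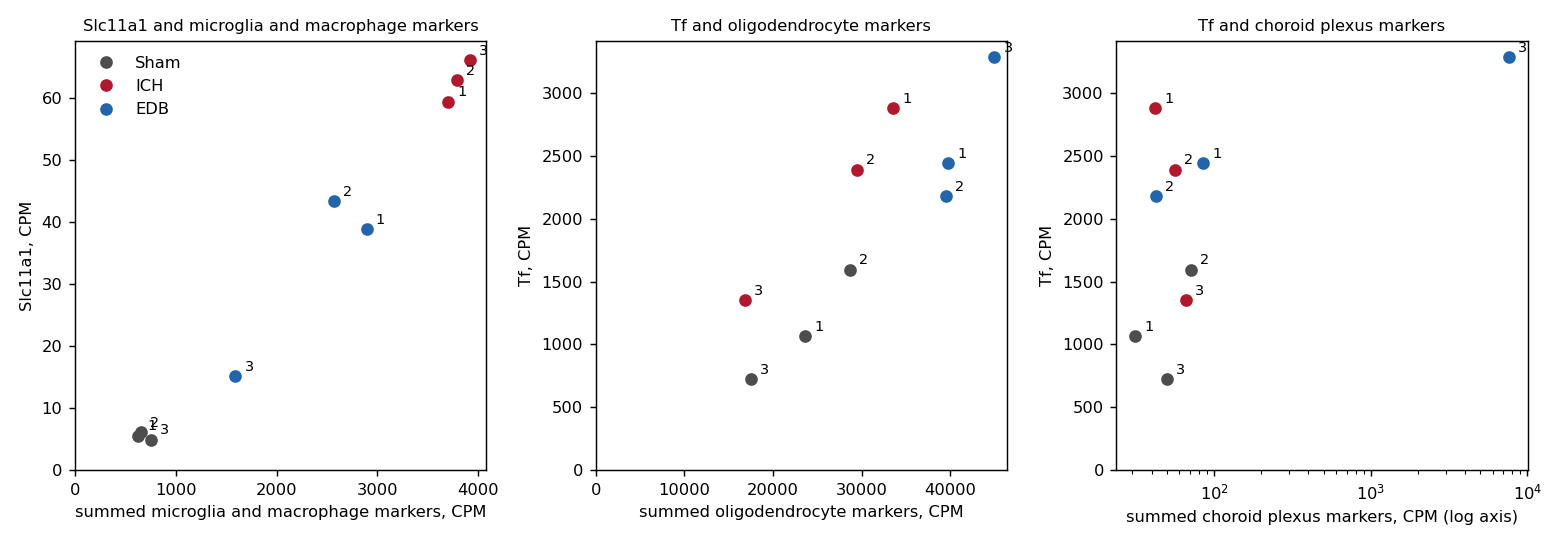
Level in CPM of Slc11a1 against summed microglia and macrophage markers, and of Tf against summed oligodendrocyte and choroid plexus markers (log axis on the right), 1 point per library with its replicate number, coloured by group. EDB 3 stands alone at 7602 CPM of choroid plexus markers, and Tf in ICH 2 and ICH 3 lies above the Sham libraries with a similar oligodendrocyte sum.

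Tf is made by oligodendrocytes, and markers of these cells were set beside it. The 10 oligodendrocyte markers summed to 23594, 28622 and 17489.5 CPM in Sham 1 to Sham 3, and Mbp made up 58.9% of the sum over all libraries. They summed to 33538, 29446 and 16838 CPM in ICH 1 to ICH 3 and to 39757, 39524 and 44958 CPM in EDB 1 to EDB 3. Of the 10, 0 were called in ICH against Sham and 1 (Cldn11) rose in EDB against Sham, and none was at 0 in any group. Per 1000 CPM of these markers, Tf stood at 45.2, 55.7 and 41.4 CPM in Sham. It stood at 85.9, 81.2 and 80.4 CPM in ICH and 61.4, 55.2 and 73.1 CPM in EDB. The ratio was higher in every ICH library than in any library of the other groups, whereas Sham and EDB overlapped, a description with no test. EDB 3, which held the choroid plexus transcripts, also had the highest Tf level of the 9 libraries, and without it the difference of EDB from Sham was 1.03 (adjusted p = 0.122). The liver list, led by Ttr, which the choroid plexus also makes, summed to 6716 CPM in EDB 3, to 226 and 239 CPM in Sham 1 and Sham 3, and to 20.1 to 61.5 CPM in the other 6 libraries. Ttr alone held 6684 CPM of this sum in EDB 3, but 20.6 and 35.8 CPM in Sham 1 and Sham 3. The part of either tissue in the Tf level was not tested.

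Genes whose levels followed a called iron gene most closely over the 9 libraries were found by the mean absolute difference of log2(CPM + 1), each gene minus its own mean, among all tested genes. For Slc11a1 these included Grn (0.14) and Ctsz (0.15), against a median of 1.34 over all tested genes. For Tf they were Apod (0.10), Tmem63a (0.14) and Rasgef1c (0.15), against 0.63. For Aco1 they were Anp32b (0.050), Slc35f6 (0.057) and Szrd1 (0.059), against 0.31. For Cp they were Cd48 (0.21), Tlr3 (0.22) and Dram2 (0.22), against 0.62, and for Fth1 a gene without a symbol (0.059), Hepacam (0.071) and Sec22a (0.079), against 0.33.

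A further 38 genes of iron uptake, chaperones, export and mitochondria were examined, of which 31 passed the filter. Of these, 3 rose, 2 fell and 26 were not called in ICH against Sham, where 11.4% of all genes tested rose and 7.3% fell. In EDB, 1 rose and 1 fell against Sham (4.95% and 2.71% of all genes), and 1 rose against ICH (0.056%). Their median log2 fold changes were -0.023, 0.083 and 0.11, beside 0.0066, -0.0073 and -0.033 over all genes tested. DESeq2 called 5 as higher and 1 as lower in EDB against Sham, beside 1040 and 757 of the 14274 genes tested. With 1 library left out the number called in ICH against Sham ran from 1 (without ICH 1) to 7 (without EDB 3). Of all genes tested, 1769 and 2529 were called in these fits. Of the 14 uptake and delivery genes, 12 were tested. The siderophore-binding lipocalin Lcn2 had 2.25, 4.04 and 2.48 CPM in Sham, 139, 78.1 and 63.5 CPM in ICH and 149.7, 15.8 and 5.94 CPM in EDB 1 to EDB 3. It rose in ICH (4.999 ± 1.25, adjusted p = 0.0285), a call lost without any 1 of the 6 Sham and ICH libraries (adjusted p spanning 0.0550 to 0.109) and without a filter on low counts (0.0620). In EDB its libraries spread widely, and the change of 4.29 ± 1.22 was not called (adjusted p = 0.0784), but was without EDB 3 (4.82, adjusted p = 0.0108) and by DESeq2 (0.00120). Without EDB 1, Lcn2 was called lower in EDB against ICH (-3.10, adjusted p = 0.0338).

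The metalloreductases of the Steap family reduce iron before it is carried across endosomal membranes. Steap4 had 3.50, 1.85 and 4.67 CPM in Sham and 11.2, 6.61 and 8.37 CPM in ICH, a rise of 1.38 ± 0.34 (adjusted p = 0.0155) that was lost without ICH 1 (0.0662). Its levels in EDB were 4.89, 5.58 and 4.56 CPM (-0.80 ± 0.33 against ICH, adjusted p = 0.263). Steap2 had 5.94, 6.22 and 7.79 CPM in Sham, 9.50, 7.61 and 9.07 CPM in ICH and 19.9, 14.6 and 19.1 CPM in EDB, where every library lay above all libraries of both other groups. Steap2 rose in EDB against Sham (1.42 ± 0.20, adjusted p = 0.00204, held without any single library) and against ICH (1.03 ± 0.20, adjusted p = 0.0485). The call against ICH was lost without any 1 library other than Sham 2 (adjusted p spanning 0.0634 to 0.196) and with scaling by library size alone (0.05002). The zinc and iron carrier Slc39a8 differed by 1.08 ± 0.41 in ICH against Sham (adjusted p = 0.0941) and -1.24 ± 0.41 in EDB against ICH (0.178). The ferritin receptor Scara5 differed by 2.07 ± 0.74 in EDB against Sham (0.122), a value that was 0.52 without EDB 3, and was called by DESeq2 (0.0472).

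**Figure D5:**
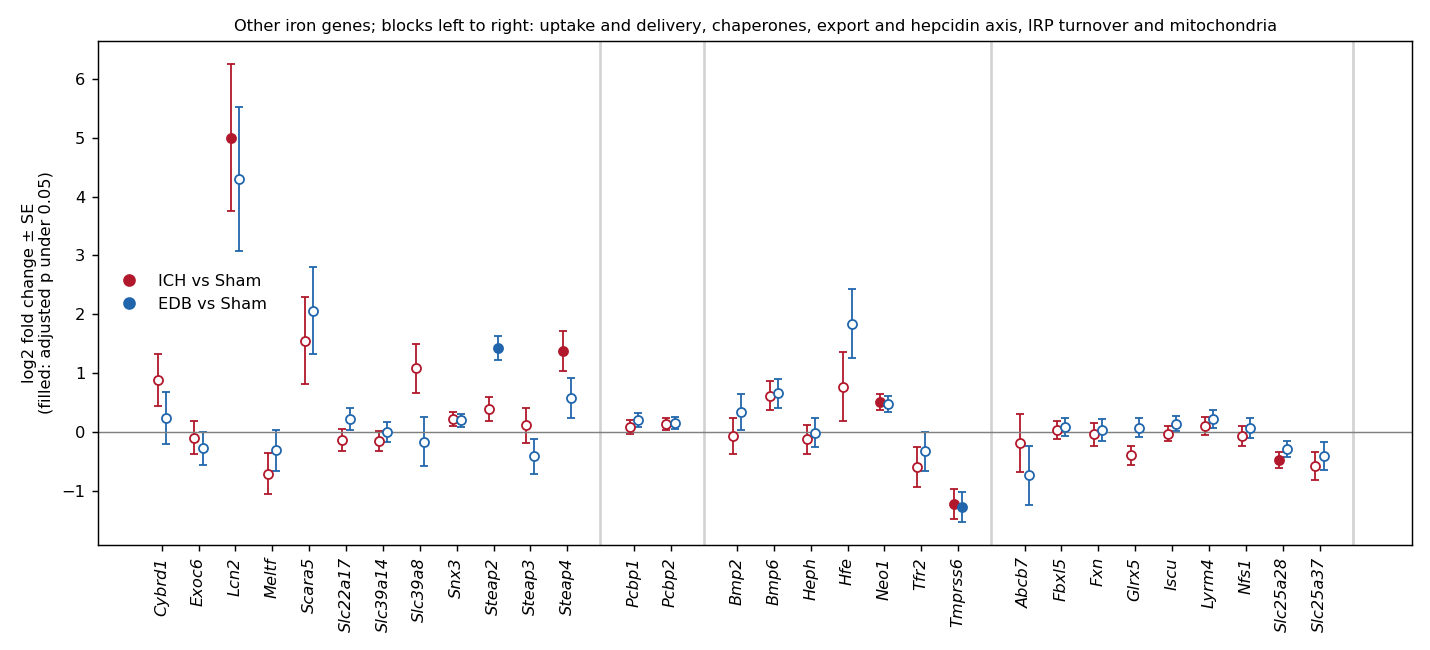
Log2 fold change ± SE of 30 of the 31 other iron genes tested, in 4 blocks by role, for ICH against Sham (red) and EDB against Sham (blue); filled points have an adjusted p under 0.05. Lcn2 has the largest changes of those shown, with wide errors, Tmprss6 is filled below 0 in both comparisons, and the chaperones Pcbp1 and Pcbp2 lie near 0.

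Among the 10 genes of the export ferroxidases and the hepcidin axis, 7 were tested. Of these, 1 rose and 1 fell in ICH, and 1 fell in EDB, each against Sham. Over all genes tested, 11.4% rose and 7.3% fell in ICH, and 4.95% rose and 2.71% fell in EDB. Tmprss6, a membrane protease that restrains hepcidin production in liver, had 9.81, 11.2 and 11.5 CPM in Sham, 4.26, 5.60 and 4.10 CPM in ICH and 3.34, 5.58 and 4.56 CPM in EDB. The value in Sham 2, where albumin was 3.21 CPM, lay between those of Sham 1 and Sham 3. The part of liver RNA in the Tmprss6 values was not tested. Tmprss6 fell in ICH (-1.22 ± 0.25, adjusted p = 0.00619, held without any single library) and in EDB (-1.27 ± 0.25, adjusted p = 0.0115), where the call was lost without EDB 1 (0.0526). Neo1, the receptor neogenin, which binds the hepcidin regulator hemojuvelin, rose in ICH by 0.51 ± 0.14 (adjusted p = 0.0262), a call lost without Sham 1, Sham 3, ICH 1 or ICH 2 (0.0767 to 0.148) and with only the 6 libraries compared (0.0536). In EDB it differed by 0.48 ± 0.14 (adjusted p = 0.0635), a difference that passed without Sham 2 or ICH 3 (0.0290 to 0.0495) and by DESeq2 (0.0305). Bmp6, the growth factor that induces hepcidin, differed by 0.62 ± 0.25 in ICH (adjusted p = 0.110). The other ferroxidase, hephaestin (Heph), had -0.12 ± 0.25 in ICH and -0.011 ± 0.25 in EDB against Sham (adjusted p = 0.805 and 0.985). The haemochromatosis gene Hfe differed by 1.85 ± 0.59 in EDB against Sham (adjusted p = 0.0835) and by 1.07 ± 0.56 against ICH (0.381), with EDB 3 at 10.7 CPM against 1.20 to 3.62 CPM in the other 8 libraries. The former passed without EDB 2 (0.0458) and by DESeq2 (0.0206), and was 0.82 without EDB 3 (0.358). Tfr2 and Bmp2 were not called in EDB against ICH (0.26 ± 0.33 and 0.40 ± 0.30, adjusted p = 0.740 and 0.554).

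All 10 genes of iron regulatory protein turnover and mitochondrial iron were tested, and 1 fell in ICH against Sham, where 7.3% of all genes tested fell. The gene called was mitoferrin 2 (Slc25a28), an iron importer of mitochondria, with 58.9, 61.8 and 53.2 CPM in Sham and 35.4, 48.3 and 41.9 CPM in ICH (-0.47 ± 0.14, adjusted p = 0.0351). The call was lost without Sham 1, Sham 2, ICH 1, ICH 3 or EDB 1 (adjusted p spanning 0.0513 to 0.121) and with scaling by library size alone (0.106) or only the 6 libraries compared (0.0630). In EDB Slc25a28 differed by -0.28 ± 0.14 from Sham (0.259) and 0.19 ± 0.14 from ICH (0.518). The iron-sulfur cluster protein Glrx5 had -0.39 ± 0.16 in ICH against Sham (adjusted p = 0.117) and 0.47 ± 0.16 in EDB against ICH (0.188). Mitoferrin 1 (Slc25a37) and Lyrm4 had -0.40 ± 0.24 and 0.22 ± 0.15 in EDB against Sham (0.356 and 0.427). Fbxl5, the iron-sensing ligase that removes Ireb2, had 0.046 ± 0.15 in ICH and 0.083 ± 0.15 in EDB against Sham (0.884 and 0.796). Of the 4 chaperone and ferritin turnover genes 2 were tested, the iron chaperones Pcbp1 and Pcbp2, and their changes ran from 0.020 to 0.21 over the 3 comparisons, none called. Heph and Fbxl5 were named after their values were seen.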

How the data were processed

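Striatal RNA was sequenced in 9 rat libraries, 3 per group. The authors deposited raw read counts per gene, 1 file per library; per the submitters' processing notes, cutadapt, HISAT2, HTSeq and limma were used on Rnor_6.0. The sources used here give no versions, annotation release, strand setting or treatment of reads with several matches. Totals of 14658110 to 17659936 set the precision, and limits from counts of 0 (3 counts) cover counting error only. Of 22890 genes, 14274 passed filterByExpr. In R 4.3.3, edgeR 4.0.16 (TMM scaling, robust glmQLFit, 1 mean per group over all 9 libraries) tested the 3 comparisons, with Benjamini-Hochberg adjustment. Libraries of a group differed beyond counting noise (chi-square per degree of freedom 24.5 to 70.9). The procedure was tested on simulated counts with 200 changed genes. These held no libraries that stand apart from their group, so the simulation does not cover that feature of the data. Genes, lists and tests were chosen with earlier results of these data known. All members were named, with up to 3 genes of smallest p per further list and comparison; exceptions are stated, and 2 genes that this rule names are not reported here. Alternatives were DESeq2 1.42.0, limma-voom (limma 3.58.1), RLE scaling, library size only, no filter, a minimum of 1 CPM in 3 libraries, only the 6 libraries compared, a replicate block, each library left out, and Sham 2 and EDB 3 left out together.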

Additional observations from a re-analysis of the deposited data

How the results depend on the processing

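The calls of Slc11a1 against Sham held under every alternative tried, as did that of Aco1 in ICH. The number of iron genes called in ICH against Sham, 4, ran from 2 to 4 with 1 library left out. In EDB against Sham, 3, it ran from 1 to 4 with 1 library left out and was 1 with the replicate block. In EDB against ICH, 0, it was 1 with DESeq2 and 0 with each library left out. Counts over all genes with 1 library left out ran from 1769 to 2624 in ICH against Sham (2670 with all libraries), from 508 to 1661 in EDB against Sham (1094; 1797 with DESeq2) and from 8 to 321 in EDB against ICH (98; 702 with DESeq2, 182 with limma-voom, 58 with the replicate block and 161 without Sham 2 and EDB 3). For the other iron genes they ran from 1 to 7 (5), from 1 to 3 (2; 6 with DESeq2) and from 0 to 1 (1; 0 with library size only and with the replicate block). The 1 call in EDB against ICH was Steap2, higher, except without EDB 1, where it was Lcn2, lower, and without Sham 2 and EDB 3, where it was Cybrd1, lower. The causes were not tested. Scaling by library size gave a median over all genes of 0.10 for ICH against Sham and of -0.11 for EDB against ICH. Same-numbered libraries of different groups did not deviate together (correlations of -0.34 to 0.37 over 9 pairs), so the numbers were not taken as pairs. With the replicate block 3, 1 and 0 iron genes were called in ICH against Sham, EDB against Sham and EDB against ICH, beside 2093, 801 and 58 of all genes tested. With this block Fth1 had adjusted p of 0.0902 in ICH and 0.0628 in EDB, Tf 0.0519 in EDB, Slc25a28 0.0590 in ICH and Steap2 0.0873 in EDB against ICH. Without Sham 2 and EDB 3 together, the calls of Fth1 in ICH (0.0655) and in EDB (0.0504), Cp in ICH (0.0645), Slc25a28 in ICH (0.0761) and Steap2 against ICH (0.0656) were lost, and those of Tf in ICH (0.0203), Neo1 in EDB (0.0414) and Cybrd1, lower, in EDB against ICH (0.0392) were gained. Directions that changed all belonged to values that were not called. Ireb2 in ICH against Sham was -0.053 without Sham 2 and EDB 3 and ran from -0.042 to 0.57 with 1 library left out, and in EDB against Sham from -0.50 to 0.14. In EDB against ICH Tfrc was 0.018 with limma-voom and from -0.54 to 0.46 with 1 library left out, Tf ran from -0.00020 to 0.49, and Pcbp2 was -0.053 with library size only and ran from -0.021 to 0.069. Slc11a2 in EDB against Sham ran from -0.022 to 0.16. The ratio of Fth1 to Ftl1 counts was not computed under any setting, since Ftl1 had 0 to 5 counts.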

Other observations

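Ncoa4, the receptor that delivers ferritin to lysosomes, is expressed in most tissues but was listed at 0 counts in all 9 libraries, so ferritin turnover could not be followed at that step. Hepcidin (Hamp) had 0.625, 0 and 0.425 CPM in Sham 1 to Sham 3, 0 to 0.108 CPM in ICH and 0 to 0.0599 CPM in EDB, and did not pass the filter. Sham 1 and Sham 3 were also the libraries with the highest albumin, and Fgb, a liver fibrinogen chain, had 7.56, 0 and 7.29 CPM in Sham 1 to Sham 3; the part of liver RNA in the Hamp values was not tested. Scara5 stood at 6.63 CPM in EDB 3, the library in which choroid plexus markers were also high, against 0.437 to 2.62 CPM in the other 8 libraries.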
